A study of Manihot esculenta with 8 samples.

Results

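A set of 101 scarce transcripts of cassava shoots, out of 31901 gene IDs in the deposited count table, was lower after a short cold treatment. The members were chosen by their measured levels, given in CPM (the count divided by the total of its library and scaled to a fixed size). A member had a control mean of at least 1 and below 10 CPM and a cold mean of at most 33.3% of its control mean. In addition, its highest cold library lay below its lowest control library. Of the 31901 IDs, 7179 had a control mean in that range, and the members were 1.41% of them. Because these values chose the members, their lower level in the cold is a description and is not tested here.

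Cassava (Manihot esculenta) is a tropical root crop that is sensitive to chilling. All samples were wild-type (WT) seedlings of the cultivar TM12, kept at 20 °C in the day and 18 °C at night with 16 h of light and 60% humidity. The control group had no treatment, and the cold group spent its last 3 h before harvest at 4 °C in the light, after 2 weeks of growth. No growth time is stated for the control group, so a difference in age could not be told apart from the cold treatment. Strand-specific libraries were made from total RNA of whole shoots, with 4 libraries in each group. Neither the hour of harvest nor whether libraries came from separate plants is stated, so the spread between libraries may be partly technical.

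In plants, chilling changes the abundance of many transcripts within hours. The level of a transcript reflects both its synthesis and its decay, and a count of reads from a whole organ does not separate them. Fewer cells of a type and less RNA per cell cannot be told apart in such samples either. The count table gives IDs without names, 0 of the 31901 IDs had a match among the annotated genes at hand, and so no function, sequence or cell type is given for any member. For the same reason the labelled tissue could not be checked against marker genes. Chromosome and locus numbers are those that the IDs carry.

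Library totals ran from 62798223 to 100031792 counts, so that 3 counts corresponded to between 0.03 and 0.0478 CPM. The 1000 most abundant IDs took 36.4% to 38.1% of the counts in 3 libraries (replicate 1 of each group and cold replicate 3), against 33.4% to 34.6% in the other libraries. Their part in the results below was not tested. Counts of called members and the fold changes that moved most are also given without them.

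The working name for these IDs, scarce transcripts nearly lost in the cold, holds for few of them. The members kept between 1.86% and 33.2% of their control level, with a median of 26.5% and quartiles of 19.8% and 30.2%. A single member was below 5% of control, 4 were below 10% and 27 were below 20%. The other 74 kept 20% or more. Nearly all members were thus still detected in the cold.

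**Figure D1:**
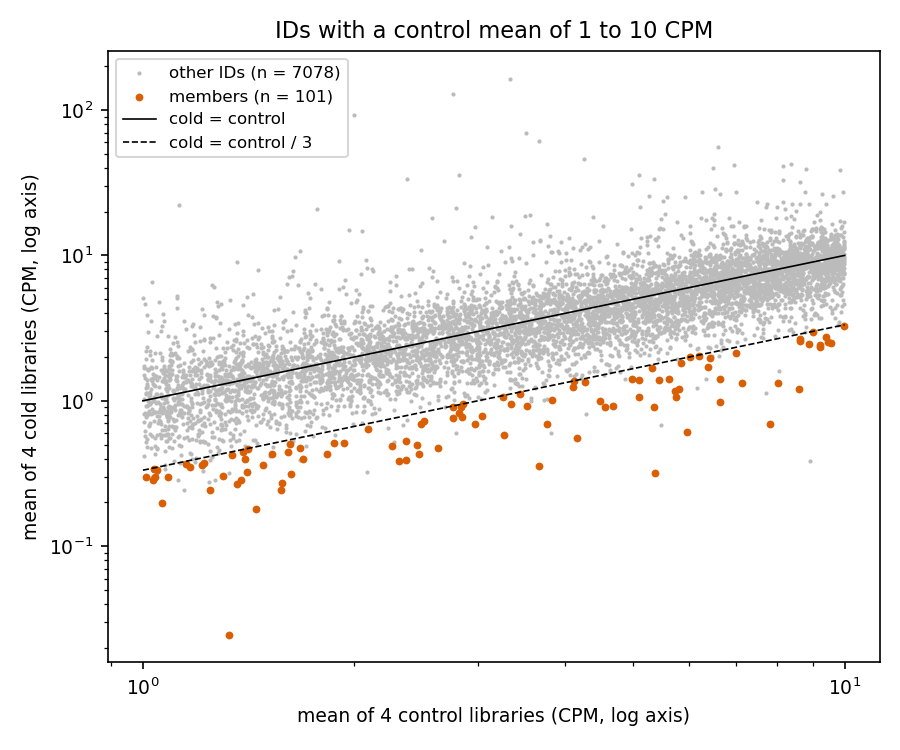
Mean of the control libraries (x axis, CPM, log scale) against mean of the cold libraries (y axis, CPM, log scale) for the 7179 IDs with a control mean of 1 to 10 CPM. The 101 members (orange) lie on or under the dashed line at control / 3, and most lie close to it; the lowest member is MANES_03G150900.

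Scarcity in CPM did not mean few reads at this depth. Control means of the members ran from 1.01 to 9.99 CPM with a median of 2.98 CPM. There were 34 members below 2 CPM, 34 from 2 to 5 CPM and 33 at 5 CPM or more. The lowest control count of any member in any library was 38 and the highest was 1987, with a median of 261.5 over the 404 values. In 96 members every control library held at least 50 counts.

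Cold means ran from 0.0247 to 3.28 CPM with a median of 0.691 CPM. They were below 1 CPM for 65 members and below 0.5 CPM for 38. The median cold count was 51.5 and the highest was 436. In 88 members every cold library held more than 10 counts, and 13 members had at least 1 cold library with 10 counts or fewer. Only 1 of the 101 members had a cold library with 0 counts. Summed over the 4 cold libraries, members held between 9 and 1129 counts, with a median of 235, against 359 to 3572 counts and a median of 1057 in control.

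Together the members took 384, 454, 388 and 345 CPM in control replicates 1 to 4 and 104, 95.6, 82.9 and 103 CPM in cold replicates 1 to 4. The group means were 393 ± 44.99 and 96.3 ± 9.67 CPM (SD, n = 4 each). The median member stood at 92.6%, 104%, 96.9% and 86.8% of its control mean in the control libraries. In cold replicates 1 to 4 the median was 25.04%, 22.0%, 20.9% and 25.6%. Over the other IDs of the same control range, the library medians were 83.7% to 105% in control and 85.0% to 97.9% in cold.

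**Figure D2:**
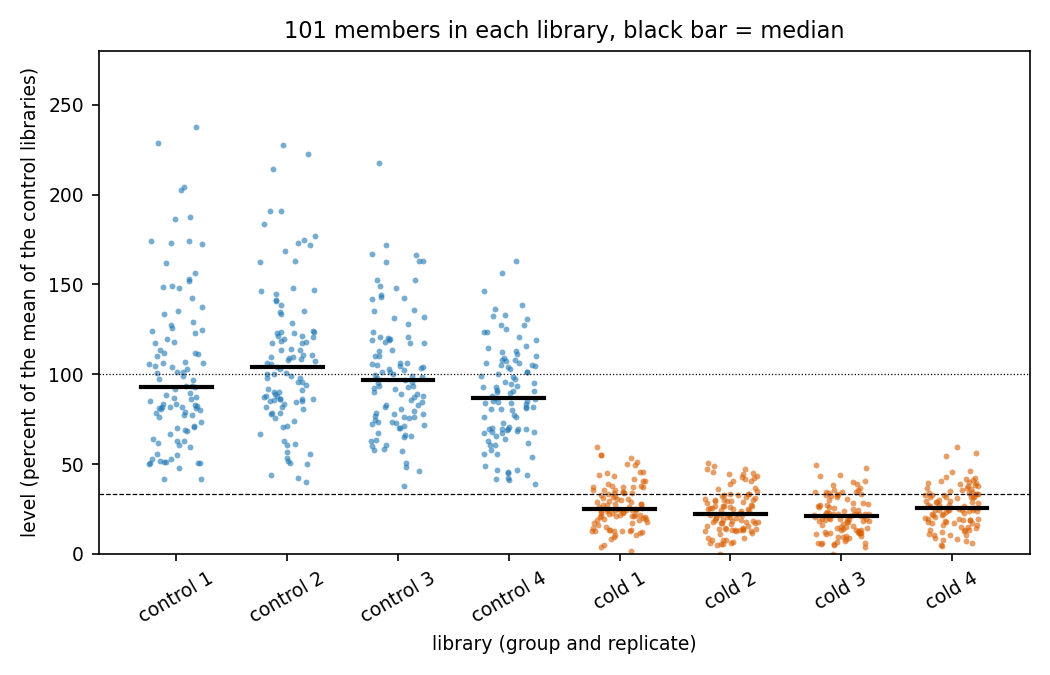
Level of each of the 101 members in each library (y axis, percent of the member's control mean; x axis, library; black bars, medians). Medians are 86.8% to 104% in the control libraries (blue) and 20.9% to 25.6% in the cold libraries (orange), and the dashed line marks 33.3%.

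The lowest remaining level was that of MANES_03G150900. It had 60, 277, 98 and 46 counts in control replicates 1 to 4 and 2, 0, 0 and 7 counts in cold replicates 1 to 4. Its level was 1.33 ± 1.14 CPM in control and 0.0247 ± 0.0372 CPM in cold libraries (SD, n = 4 each). Cold replicates 2 and 3 were at 0, where 3 counts would be 0.0372 and 0.0478 CPM, and cold replicate 4 held most of what remained. All further members were above 5% of control.

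MANES_03G151700 kept 5.93% of its control level. It stood at 2.25, 12.0, 3.83 and 3.45 CPM in control replicates 1 to 4 and at 0.28, 0.261, 0.318 and 0.416 CPM in cold replicates 1 to 4. Control replicate 2 was more than 3 times as high as any other control library, while the cold libraries lay together.

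MANES_10G045400 kept 8.80%. Its control levels were 4.37, 12.8, 6.48 and 7.73 CPM and its cold levels 1.04, 0.707, 0.685 and 0.326 CPM. The order within each group differs from that of MANES_03G151700, with cold replicate 4 the lowest and not the highest.

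MANES_03G151900 kept 9.71%. It had 2.69, 6.40, 2.41 and 3.15 CPM in control and 0.47, 0.211, 0.191 and 0.551 CPM in cold libraries. As in MANES_03G151700, control replicate 2 was highest.

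MANES_17G034500 kept 10.2%, and its control libraries were more even. Its levels were 5.27, 7.24, 3.90 and 7.45 CPM in control and 0.76, 0.534, 0.414 and 0.731 CPM in the cold. The lowest control library was 5.13 times the highest cold library, one of the 3 widest gaps among the members, after MANES_03G150900 (6.95 times) and MANES_03G151700 (5.40 times).

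The 5 most abundant members kept between 26.1% and 32.8% of their control level. MANES_06G029100 had the highest control mean, 9.99 ± 4.09 CPM, and kept 3.28 ± 0.87 CPM in the cold (SD, n = 4 each), or 32.8%. MANES_11G034700 stood at 17.9, 10.4, 4.62 and 5.30 CPM in control and 4.35, 1.70, 2.58 and 1.38 CPM in cold libraries. MANES_03G040000 stood at 9.21, 3.78, 20.6 and 4.27 CPM in control and 2.19, 2.79, 1.45 and 3.67 CPM in the cold. In both, the control libraries were uneven, with control replicate 1 or 3 far above control replicate 4. MANES_15G144200 (29.1% of control) and MANES_15G139500 (26.1%) complete the 5 most abundant members.

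At the lower end, MANES_17G053200 went from 1.01 ± 0.432 to 0.3 ± 0.129 CPM (SD, n = 4 each). MANES_13G074300 went from 1.03 ± 0.153 to 0.284 ± 0.196 CPM and MANES_12G146000 from 1.04 ± 0.428 to 0.342 ± 0.104 CPM. The spread in the cold is wide for MANES_13G074300, whose cold libraries held 35, 42, 4 and 18 counts.

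The fold criterion cuts through a continuous range. The members just inside it were MANES_08G029200 (33.16% of control), MANES_08G133900 (33.16%) and MANES_01G101800 (33.24%). The IDs just outside it, with the other criteria met, were MANES_18G052300 (33.42%), MANES_17G039100 (33.46%) and MANES_09G004800 (33.55%). In the control range, 889 IDs had all cold libraries below all control libraries, which is 12.4% of the 7179, and 788 of them kept more than 33.3% of control. A further 45 IDs were at or below 33.3% but had overlapping groups.

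For many members the groups were separated by a narrow margin. The lowest control library was between 1.00 and 6.95 times the highest cold library, with a median of 1.76. The margin was at least 2-fold for 41 members and below 1.2-fold for 14. The narrowest was that of MANES_06G154500, with 3.52, 0.654, 1.13 and 0.630 CPM in control and 0.34, 0.261, 0.207 and 0.630 CPM in cold libraries. Its lowest control and highest cold library were level to the digits shown. MANES_08G114900 (1.01-fold) and MANES_03G040000 (1.03-fold) were the next narrowest. Set against the lowest control library in place of the control mean, 38 of the 101 members had a cold mean of at most 33.3%.

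All 101 members passed the filter on low counts through their control libraries. In edgeR's quasi-likelihood fit over 26517 tested IDs, 82 of the 101 were called lower in the cold at a Benjamini-Hochberg adjusted p below 0.05. Over all tested IDs 5.09% were called lower, and over those of the same control range 4.69% were. The members were chosen on this same contrast, so nothing is read from this difference. The median log2 fold change was -1.88 over the members and 0.01 over all tested IDs. The 82 called members were 6.08% of all 1349 IDs called lower. Leaving out control replicate 2 gave 51 called members, and leaving out either cold replicate 3 or cold replicate 4 gave 54. Over all tested IDs the number called lower also fell from 1349, to 589, 844 and 673 in turn. When the 3 libraries with more of their counts in abundant IDs were left out, 43 members were called, and 769 IDs over all. Of the 27 members chosen to be named, 19 were called with all libraries and 8 without those 3. The fold change of 4 of these 27 then moved by over 1.5-fold. The log2 fold change went from -1.79 to -0.87 for MANES_15G144200 and from -2.05 to -0.83 for MANES_06G154500. It went from -1.52 to -3.005 for MANES_01G101800 and from -3.44 to -4.11 for MANES_10G045400. MANES_03G150900 had an adjusted p of 0.0893 in edgeR's test without the 3 libraries, against 0.0103 with all.

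The 19 members that were not called had a wider spread than the rest, which was not tested. Spread enters the test that makes the call, so this difference follows largely from the split. Their median coefficient of variation (CV, SD as a percent of the mean) was 51.5% in control and 57.5% in cold libraries, against 32.9% and 35.1% for the called members. Their remaining level was similar, with a median of 27.8% against 25.8%, and their control mean was lower, with a median of 1.61 against 3.39 CPM. MANES_01G101800 had the highest adjusted p of all members (0.141 in edgeR's quasi-likelihood test, 0.0298 without the 3 libraries), with control libraries at 1.25 to 1.603 CPM and cold libraries at 0.84, 0.112, 0.701 and 0.225 CPM. MANES_15G062200, named for its spread after its values were seen, had 4.54, 15.2, 5.03 and 9.68 CPM in control. In the cold it had 0.31, 3.71, 0.35 and 0.45 CPM, so that cold replicate 2 held most of the remaining signal.

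The rule set no limit on replicate spread, but spread is not independent of it. The rule limits the overlap of the groups, and its cut on means can favour IDs with a single high control library. The median CV of the members was 35.3% in control, against 25.4% for the other 7078 IDs of the same control range. In the cold it was 39.97% against 27.1%. Counting noise alone would give a median CV of 6.15% for the members in control and 13.1% in the cold, against 5.26% and 5.59% for the other IDs. The other IDs share the control range only, so in the cold the members are set against IDs with more counts. The spread was above counting noise at the 95% chi-square limit for 94 of the 101 members in control and 85 in the cold. This was 93.07% and 84.16% of the members, against 93.09% and 94.15% of the other IDs in the control range.

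The most even member in control was MANES_05G149400, with a CV of 3.36%, and the most uneven was MANES_06G154500 with 92.8%. The first is named for its spread after its values were seen. The highest control library was at least 2 times the lowest for 59 members and at least 5 times for 6. In the cold the numbers were 62 and 10. When the highest control library of each member was set aside, the median remaining level was 30.2%, and 60 members still had a cold mean of at most 33.3% of the other 3 control libraries.

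The rule names no order of libraries within a group, but that order is not independent of it either. It uses the lowest control and the highest cold library, so the shares below may partly follow from the choice. Control replicate 1, for example, was the lowest control library for 33.7% of the members and for 51.9% of the other IDs. Control replicate 2 was the highest control library for 35 members (34.7%), while it was highest for 18.5% of the other IDs in the control range. Control replicate 4 was highest for 13 members (12.9%) and for 31.9% of the other IDs. Among cold libraries, cold replicate 1 was highest for 36 members (35.6%, against 21.7% of the other IDs) and cold replicate 3 for 15 (14.9%, against 21.5%). In 15 members a single control library stood at least 2-fold above the next. This was control replicate 1 in 7 members, control replicate 2 in 6, control replicate 3 in 2 and control replicate 4 in 0. Of the 6 with control replicate 2, 5 lie in a single stretch of chromosome 3 described below. The members thus did not share a single order of libraries.

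Levels in libraries that had no part in a choice were obtained by applying the rule without 1 library and then reading that library. Without cold replicate 3 the rule took 94 IDs, and in cold replicate 3 these stood at a median of 22.2% of control, with 73.4% of them at or below 33.3%. Among the other IDs of the control range, 8.71% were that low in cold replicate 3. Without cold replicate 2 it took 118 IDs, which stood at 29.4% in that library, and 57.6% of them met the fold (4.94% of the other IDs). Without cold replicate 4 it took 136 IDs at 32.8%, of which 52.2% met it (2.74%).

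Cold replicate 1 differed. Without it the rule took 163 IDs, which stood at a median of 43.3% of control in cold replicate 1, and 36.2% of them met the fold, against 3.48% of the other IDs. The cold libraries used in that choice had a median of 24.5%. In each of the 4 cases the median of the chosen IDs in the left-out cold library was below that of the other IDs. In 3 of the 4 it was above their median in the cold libraries that chose them. These percentages are taken of a control mean that had a part in the choice, so they are not independent of it.

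Control libraries were left out in the same way. IDs chosen without a control library stood in it at a median of 73.05%, 87.5%, 89.4% and 71.0% of the control mean used (control replicates 1 to 4). The other IDs of the control range stood at 79.85%, 99.6%, 105% and 107%. The left-out control library lay above all cold libraries for 84.8% of the chosen IDs (control replicate 1), 96.0% (control replicate 2), 96.9% (control replicate 3) and 86.3% (control replicate 4). This held for 23.2% to 33.9% of the other IDs. All cold libraries in this comparison had been used in the choice, and they already lay below the other control libraries. High shares among the chosen IDs were thus largely fixed in advance, and nothing is read from this difference. Of the 101 members, 51 were chosen under each of the 8 choices that left out 1 library.

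**Figure D3:**
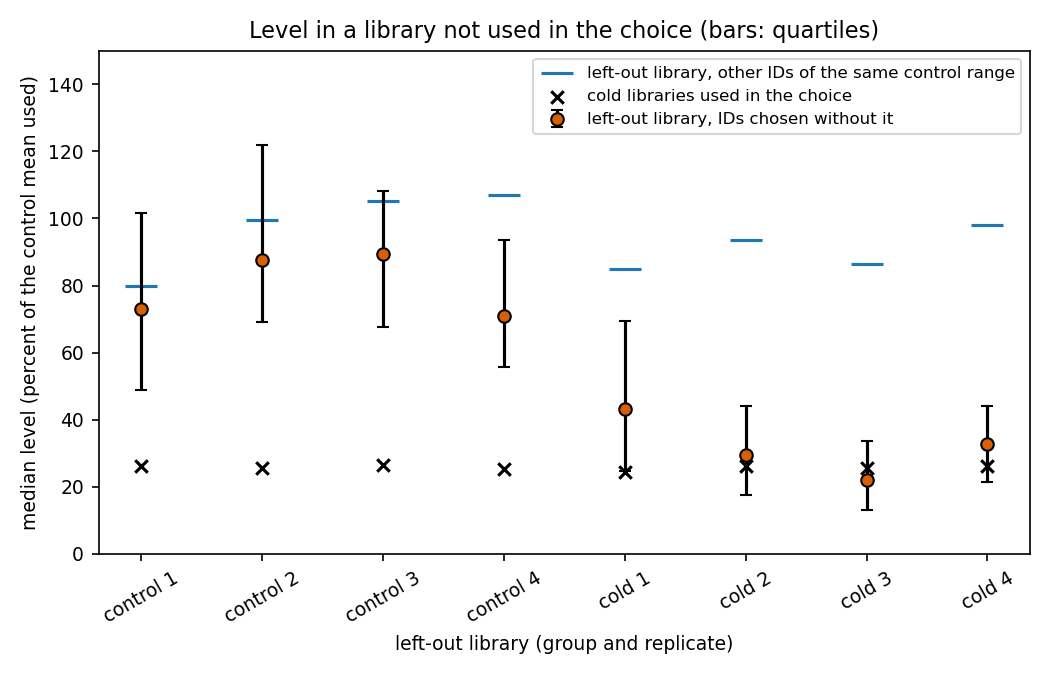
Median level in a library not used in the choice (orange points, with quartiles; y axis, percent of the control mean used; x axis, the left-out library), for the IDs chosen without it. Left-out cold libraries have medians of 22.2% to 43.3% for the chosen IDs and 84.9% to 98.2% for the other IDs of the same control range (blue bars), and crosses give the cold libraries used in the choice (24.5% to 26.5%).

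Members were found on all 18 chromosomes, between 2 on chromosome 7 and 12 on chromosome 3. As a share of the IDs in the control range, this was 0.631% on chromosome 7 and 2.49% on chromosome 3. Of the 101 members, 86 had no other member within 2 places in the order of IDs. The other 15 formed 7 groups, 1 with 3 members and 6 pairs. Directly next to another member were 12 of them, 11.9% of the 101. Under the choice without cold replicate 1, 20 of the 163 IDs then chosen lay next to another chosen ID. Under the choice without control replicate 2 it was 8 of 99. These numbers were not tested against chance.

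On chromosome 3, 5 members lay between MANES_03G150800 and MANES_03G151900, a span of 12 IDs. They include 3 of the 4 members with the lowest remaining levels. MANES_03G150800 had 3.16, 14.2, 3.85 and 5.31 CPM in control and 1.64, 0.732, 0.398 and 1.17 CPM in cold libraries. MANES_03G151600 had 4.81, 14.8, 5.63 and 6.98 CPM in control and 1.53, 0.521, 1.08 and 2.18 CPM in the cold. In each of the 5 members control replicate 2 was the highest library, at least 2 times the next. Without it, MANES_03G150800 had an adjusted p of 0.0517 in edgeR's test, and the others stayed below 0.05. Cold replicate 4 was the highest cold library for 4 of them and cold replicate 1 for MANES_03G150800.

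The IDs between these members also had lower cold means. MANES_03G151300, which is no member because of its control mean of 12.5 ± 7.96 CPM, stood at 2.23 ± 0.978 CPM in the cold (SD, n = 4 each), 17.8% of control. Of the 12 IDs in the span, 4 were too scarce to be tested, with 9, 53, 11 and 18 counts summed over the control libraries and 0, 8, 1 and 4 over the cold libraries. MANES_03G151100 and MANES_03G151200, both below 1 CPM in control, stood at 46.7% and 66.9%. MANES_03G150700, directly before the first member, was also too scarce to be tested. It stood at 21.2% of control, with 108 counts summed over the control libraries and 22 over the cold libraries. MANES_03G152100, 2 places after the last member, kept 19.8% of 17.9 CPM, while the next ID, MANES_03G152200, stood at 32.7 ± 5.15 CPM in control and 33.4 ± 6.05 CPM in cold libraries. These non-members are named for their place, after their values were seen.

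Ratios between neighbours in the stretch were read as well. MANES_03G150800 was between 3.80 and 9.72 times as high as its neighbour MANES_03G150900 in the control libraries. Summed over the cold libraries they had 352 and 9 counts, a ratio of 39.1 (exact 95% interval 20.4 to 86.2, for counting error only), against 2382 and 481 counts in control, a ratio of 4.95 (4.49 to 5.47). MANES_03G151600 was 1.23 to 2.14 times as high as MANES_03G151700 in control and 2.00 to 5.46 times in cold libraries. In cold replicates 1 and 4 the first ratio was 14.9 to 82.0, and in cold replicates 2 and 3 MANES_03G150900 had 0 counts. The ratios compare CPM of different IDs without regard to length, so only their shift can be described. MANES_03G150900 is the member with the lowest remaining level, so the shift of its ratio restates that level and supports nothing further.

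**Figure D4:**
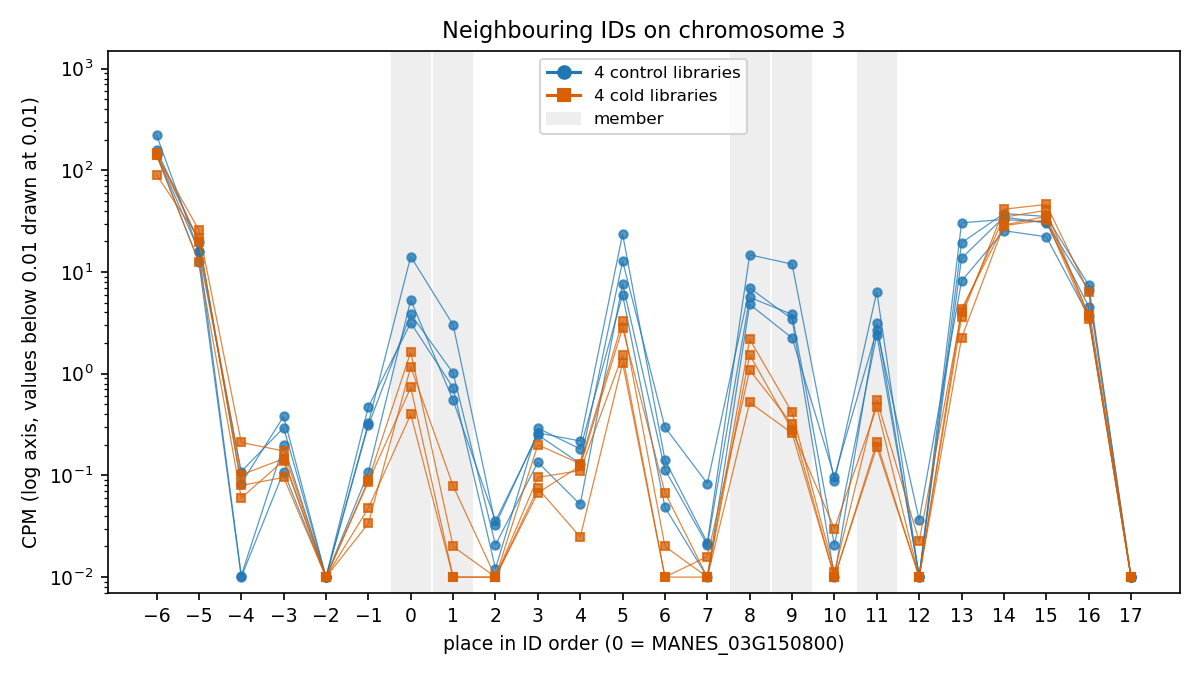
CPM (y axis, log scale) of neighbouring IDs on chromosome 3 by place in ID order (x axis, place 0 is MANES_03G150800) in the control (blue) and cold (orange) libraries, with members shaded. From place 0 to place 13 the IDs above 1 CPM in control are lower in the cold, at 1.86% to 19.8% of control, and at place 14 the groups overlap.

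In the adjacent pairs on chromosomes 2, 5, 10 and 11 the ratio ranges of the groups overlapped, as for MANES_03G151600 and MANES_03G151700. MANES_05G152100 (1.21 ± 0.354 CPM in control, 0.363 ± 0.112 CPM in the cold) was 0.17 to 0.232 times as high as MANES_05G152200 in the control libraries and 0.146 to 0.257 times in the cold libraries. MANES_11G011900 (5.62 ± 0.828 and 1.40 ± 0.493 CPM) was 4.27 to 6.02 times as high as MANES_11G012000 in control and 2.93 to 7.91 times in the cold. On chromosome 2, MANES_02G140800 stood at 16.6, 11.0, 4.08 and 3.92 CPM in control, and MANES_02G140900 at 7.63, 9.26, 2.02 and 2.50 CPM. Both were high in control replicates 1 and 2 and low in control replicates 3 and 4. The first was 1.19 to 2.17 times as high as the second in control and 1.94 to 6.19 times in cold libraries. MANES_06G028900 (26.0% of control) and MANES_06G029100 (32.8%) lay 2 places apart and were both highest in control replicate 2. SDs here are over 4 libraries in each group.

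A further 6 members lay directly next to an ID with a control mean of 10 CPM or more that met the same fold and overlap criteria. The rule makes the member the scarcer of each such pair. MANES_13G080800 (1.07 CPM in control, 18.7% remaining) lay next to MANES_13G080900 (20.4 CPM, 19.5% remaining). The first was 0.0476 to 0.066 times the second in the control libraries and 0.0376 to 0.0628 times in the cold libraries. MANES_13G009800 (1.15 CPM, 31.9%) and MANES_13G009900 (43.3 CPM, 32.3%) showed ratios of 0.0152 to 0.0466 in control and 0.0225 to 0.035 in the cold. MANES_11G013500 (15.4% remaining) and MANES_11G013400 (14%) also had near-equal remaining shares. In MANES_08G029200 (33.2% remaining) and MANES_08G029300 (18.6%) the shares differed, with ratios of 0.288 to 0.863 in control and 0.559 to 1.57 in the cold. These pairs were named after their values were seen. The sources used here do not say how reads shared by neighbouring IDs were counted, and the part of such reads in these pairs was not tested.

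Neighbours that were no members were read as well, since the rule did not choose them. The next ID on each side with a control mean of at least 0.5 CPM gave 186 neighbours. They stood at a median of 84.8% of control, with quartiles of 65.4% and 107%, against 97.8% (80.3% and 117%) for all 24178 non-member IDs at that level. Of the neighbours, 14 were at or below 33.3% of control, 7.53% of 186, against 0.968% of all such IDs. In edgeR's fit 25 of the 186 were called lower, 13.4%, against 5.17% of all such IDs tested. Called higher were 4 of the 186, against 924 of the 24176 such IDs tested. Without the chromosome 3 stretch the median of the neighbours was 84.9%. When 1 library was left out, it ran from 82.4% to 87.1%.

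Farther neighbours were closer to the level of all IDs. The second non-member ID on each side stood at a median of 91.6%, the third at 95.6%, the fourth at 98.0% and the fifth at 99.4%. The share called lower was 6.38% at the second place and 4.28% to 5.85% from the third to the fifth. Neighbours share libraries with the members, and no test of this difference was made.

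**Figure D5:**
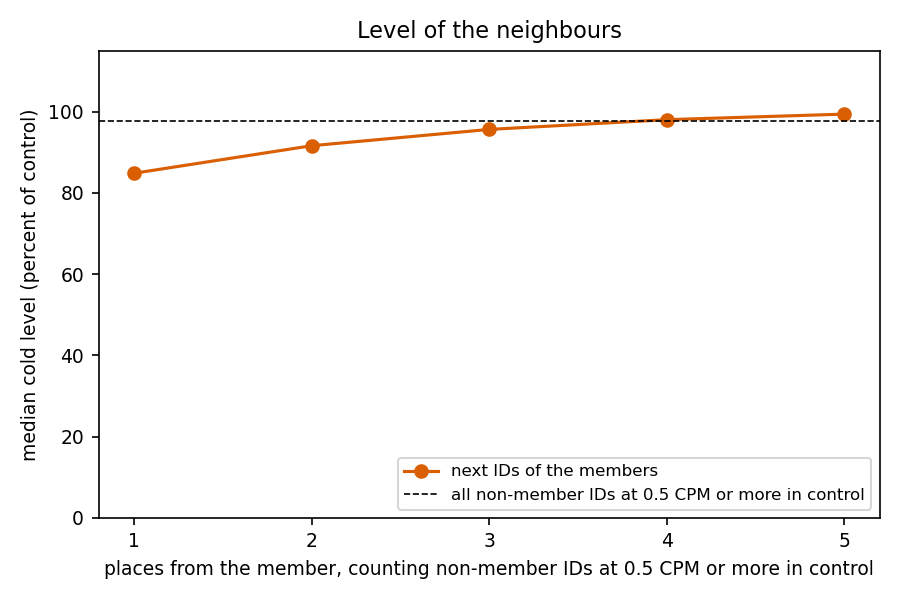
Median cold level as a percent of control (y axis) of non-member IDs by their place from a member (x axis, counting IDs at 0.5 CPM or more in control). The median is 84.8% at the first place and 99.4% at the fifth, and the dashed line marks 97.8%, the median of all non-member IDs at that level.

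Reduced IDs were also found at higher abundance. Among the 15823 IDs with a control mean of 10 CPM or more, 124 (0.784%) met the same fold and overlap criteria, against 1.41% in the control range of the members. Their median remaining level was 25.5%, against 26.5% for the members, and 7 of the 124 were below 10%, against 4 of the 101. In the other direction, 83 IDs of the members' control range (1.16%) had a cold mean of at least 3 times the control mean with every cold library above every control library. These shares were not tested against each other.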

How the data were processed

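The values used are unscaled counts for each gene ID, deposited by the authors for 4 control and 4 cold stranded total RNA libraries. STAR 2.7.10a, SAMtools 1.6 and bedtools 2.30 appear in the submitters' processing notes, with no role stated. The sources used here do not say how reads were assigned to IDs, with which strand setting or on which annotation, so values of overlapping genes and of near-identical copies are uncertain. No sequence was printed, and the planned counts by gene description, biotype and promoter were not run, because 0 of 31901 IDs matched the gene table (M.esculenta_v8).

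CPM is the count over the column sum, times 1000000. Neighbours follow chromosome and locus number in the ID. Cold was compared with control in R 4.3.3 with edgeR 4.0.16 (filterByExpr, TMM, robust quasi-likelihood F test, 2-sided, no replicate block), with Benjamini-Hochberg adjustment over 26517 IDs and a threshold of 0.05. The procedure was tested on simulated data. DESeq2 1.42.0 and limma 3.58.1 (voom) were alternatives. Tables and figures were made in Python 3.11.15. No library repeated another (lowest chi-square per degree of freedom within a group 66.2). Intervals of 3 counts cover counting error only. The members, the lists of named IDs (lowest remaining level, highest and lowest control mean, 0 counts, edges of the fold, widest and narrowest gap, adjacent members) and the tests were chosen with earlier results of these data known.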

Additional observations from a re-analysis of the deposited data

Results flagged for a closer look

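The named members, the summed level of all members and their median level were examined for single libraries standing apart within their group. Of 58 groups of 4 libraries, 3 had one, and about 1 in 20 would by chance. MANES_03G151700 reached 11.96 CPM in control replicate 2, against 2.25 to 3.83 CPM in the other control libraries. MANES_08G029200 reached 10.33 CPM in control replicate 3, against 4.08 to 4.92 CPM. MANES_05G152200 was at 4.48 CPM in control replicate 4, against 6.99 to 7.16 CPM. Over all 101 members such a library was found in 11 control groups (10.9%) and 7 cold groups (6.93%), against 6.73% and 7.35% of the other IDs of the same control range.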

How the results depend on the processing

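Over 30 alternatives, 407 of 505 recomputed values kept their side of the threshold or stayed within the limits set for them, and 0 of the fold changes of the 27 named members changed sign, a direction that the choice of members largely fixes. Of 424 recomputed fold changes of named members, 66 lost the call and 19 gained it. The number of IDs meeting the rule was 337 at a cold mean of at most 50% of control, 43 at 25%, 67 with a control mean of 2 to 10 CPM and 183 without the 3 libraries with the larger share in abundant IDs, of which 76 were members. It was 94 to 163 when 1 library was left out, and 86 with TMM-scaled library sizes, all of them members. The number of members called lower was 51 to 76 without 1 library and 43 without the 3 libraries, an alternative added after the data were seen. Over all tested IDs it was 589 to 1385 and 769. In DESeq2 100 members were called lower, and 2369 IDs over all. The median log2 fold change was -2.06 to -1.87 without 1 library, and the median remaining level 24.1% to 27.0%. IDs next to another chosen ID numbered 8 to 20, out of the 94 to 163 IDs chosen without 1 library. The neighbours stood at 92.1% when the 3 next IDs on each side were taken. The cause was not tested for these shifts, other than fewer libraries or a changed criterion.

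Same-numbered libraries are not said to share anything but a number, and the correlations between same-numbered libraries, each taken relative to its group mean, were 0.11, 0.08, -0.34 and -0.04. With the replicate block 57 members were called lower, and 689 of all tested IDs. The median log2 fold change of the members was then -1.93. Depth limits the scarcest values: 3 counts are 0.0478 CPM in the shallowest library.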
